A study of Mus musculus with 12 samples.

Results

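The heat shock chaperones are 10 genes chosen by symbol (Hspa1a, Hspa1b, Hspa8, Hspa5, Hsph1, Dnajb1, Bag3, Hsp90aa1, Hspb1 and Cryab), of the 25442 Ensembl genes listed in both count tables and the 32783 listed in either. They were followed by cell fraction and by vector. All 10 passed the filter on low counts in every comparison, so that no member is left out of the counts given here.

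The study asked what raised adenosine A2A receptor (A2AR, gene Adora2a) in hippocampal astrocytes does to these cells and to microglia. Male C57Bl6/J mice were injected on both sides of CA1 at 2 months of age with an adeno-associated virus that carries the astrocyte-selective GfaABC1D promoter. Cells were sorted 2 months later, at 4 months. The control vector (AAV2/9-GfaABC1D-Bglob-GFP-WPRE, here AAV-GFP) carried GFP and the other (AAV2/9_GfaABC1D-Bglob-A2AR-WPRE, here AAV-A2A) carried A2AR. Astrocytes were taken from enzymatically dissociated hippocampi with magnetic beads to the surface antigen ACSA-2, and microglia from the cells left over with beads to CD11b. All groups therefore share a virus, an injection, a digestion at 37 °C and a sort. There were 3 libraries for each vector in each fraction, named here by vector and number (from the ACSA-2 beads GFP-303, GFP-306, GFP-307, A2A-309, A2A-310 and A2A-313, and from CD11b beads GFP-2328, GFP-2329, GFP-2331, A2A-2343, A2A-2344 and A2A-2347). The labels do not say that each number is a separate animal, so p-values measure the spread between these libraries. No number occurs in both fractions, and the animals or preparations cannot be told apart from the fraction.

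Molecular chaperones keep other proteins folded. HSP70 proteins bind exposed hydrophobic stretches of a client, J-domain proteins bring clients and start the ATP cycle, and nucleotide exchange factors end it, while small heat shock proteins hold unfolded clients until HSP70 can take them. When unfolded protein accumulates in the cytosol, the transcription factor HSF1 binds heat shock elements in the promoters of these genes, whereas in the endoplasmic reticulum (ER) the unfolded protein response (UPR) acts through other elements on Hspa5 and its partners.

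In outline, 4 of the 10 chaperones (Hspa1a, Hspa1b, Dnajb1 and Hspa5) were lower in ACSA-2 than in CD11b libraries of AAV-GFP animals by 4.50- to 14.4-fold, and Bag3 was 1.96-fold higher. When 3 CD11b libraries rich in the choroid plexus transcript Ttr were left out, GFP-2331 was the only CD11b control. The log2 fold changes of the 4 were then -1.77 to -2.46 in place of -2.17 to -3.85. The call for Bag3 was lost in 9 of the 12 fits that left out 1 library. A gene is called here at an adjusted p below 0.05 in edgeR's quasi-likelihood test with a log2 fold change beyond 0.32 in either direction. Of all genes, 14.4% were called lower and 12.3% higher in ACSA-2 than in CD11b libraries of AAV-GFP animals. No chaperone of the 10 was called for AAV-A2A against AAV-GFP in either fraction. The share of all genes there was 3.36% in ACSA-2 and 0.0% in CD11b libraries.

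Promoters are shown for 4 members. These are the pair of stress-inducible HSP70 genes, which moved together across libraries, and Hspb1, which had the lowest p of the 10 in the CD11b comparison of vectors. The last is Hspa5, the most abundant member in CD11b libraries. Each is the 250 bases before the RefSeq transcription start in GRCm38.p6, on the gene's own strand. Capitals mark a pair of heat shock units (GAANNTTC or TTCNNGAA) in the first 3 and an ER stress element (CCAAT, 9 further bases of any kind, then CCACG, searched on both strands) in Hspa5. The windows are chr17:34972157-34972406 (minus strand) for Hspa1a, chr17:34959239-34959488 (minus strand) for Hspa1b, chr5:135887669-135887918 (plus strand) for Hspb1 and chr2:34771840-34772089 (plus strand) for Hspa5.
Hspa1a: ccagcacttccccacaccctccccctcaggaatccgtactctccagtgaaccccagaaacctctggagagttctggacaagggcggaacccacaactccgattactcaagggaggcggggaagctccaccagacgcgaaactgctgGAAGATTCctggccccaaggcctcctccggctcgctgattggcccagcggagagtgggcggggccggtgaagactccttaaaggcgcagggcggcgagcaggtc
Hspa1b: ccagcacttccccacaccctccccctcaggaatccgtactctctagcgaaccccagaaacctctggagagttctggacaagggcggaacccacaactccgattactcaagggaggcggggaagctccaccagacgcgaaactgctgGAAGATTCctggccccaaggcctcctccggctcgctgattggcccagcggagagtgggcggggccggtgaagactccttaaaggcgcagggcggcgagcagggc
Hspb1: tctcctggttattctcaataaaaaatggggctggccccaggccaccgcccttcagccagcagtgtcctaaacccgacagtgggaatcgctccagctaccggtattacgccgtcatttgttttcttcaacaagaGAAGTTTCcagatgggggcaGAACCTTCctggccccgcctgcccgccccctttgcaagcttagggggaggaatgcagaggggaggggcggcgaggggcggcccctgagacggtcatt
Hspa5: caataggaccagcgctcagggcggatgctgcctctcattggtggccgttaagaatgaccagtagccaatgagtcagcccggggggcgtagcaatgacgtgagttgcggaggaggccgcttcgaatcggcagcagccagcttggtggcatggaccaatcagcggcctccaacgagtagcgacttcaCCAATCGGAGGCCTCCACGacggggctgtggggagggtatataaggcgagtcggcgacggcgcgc

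The upstream stretches of Hspa1a and Hspa1b were identical at 247 of 250 bases (98.8%), and both held GAAGATTC from 104 to 97 bases before the start. Hspb1 held GAAGTTTC at 117 to 110 and GAACCTTC at 97 to 90 bases before its start. Hsph1 held TTCTCGAA at 54 to 47 or 33 to 26 bases before its start, according to which of its RefSeq starts was used. Such a pair of units was found in 12.8% of all 32851 RefSeq windows, and the longer form of 3 units, alternating and 2 bases apart, in 0.466% of windows and in no member. The ER stress element of Hspa5 lay 65 to 47 bases before its start, and 0.113% of windows held it. Dnajb1 and Bag3 had no match in these windows, and promoters of Hsp90aa1, Hspa8 and Cryab were not used here. A match of letters is a description and not a binding site.

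The libraries held 33937067 to 49217553 counts on genes in the ACSA-2 fraction and 36098295 to 53206974 in the CD11b fraction, without molecular identifiers. Adora2a (ENSMUSG00000020178, chr10:75316877-75334784) was counted at 25.0, 23.2 and 25.6 CPM (counts scaled to a common library total) in the AAV-GFP libraries, and at 764, 655 and 926 CPM in the AAV-A2A libraries, of the ACSA-2 fraction, all far above the controls (log2 fold change 5.02, SE 0.21, adjusted p = 1.55e-05). In CD11b libraries it was 3.77, 4.67 and 8.29 CPM with AAV-GFP and 18.6, 45.2 and 15.0 CPM with AAV-A2A. All AAV-A2A libraries were above the controls there (log2 fold change 2.20, 95% interval 0.92 to 3.49). Adora2a was not called (edgeR adjusted p = 0.280), and neither was any other gene in that comparison. The source of these reads was not tested. Summed astrocyte markers reached 23684 to 37367 CPM in ACSA-2 and 258 to 510 CPM in CD11b libraries, and summed microglia markers 255 to 472 and 7100 to 58651 CPM, in the direction of the labels and with none of either list at 0 in a whole group. The choroid plexus gene Ttr, however, took 8.05% of counts in GFP-2328, 6.41% in GFP-2329 and 2.80% in A2A-2347, but at most 0.00726% in the other 3 CD11b libraries and 0.0926% in ACSA-2 libraries. In these Ttr-rich libraries summed microglia markers were 7100, 14487 and 20197 CPM, below summed choroid plexus markers (73274, 60836 and 29534 CPM). In the other 3 CD11b libraries summed microglia markers were 48364 to 58651 CPM. Fold changes of the members that moved without these 3 Ttr-rich libraries are therefore also given for the 9 others, whereas levels, their order and correlations are given over all 12. The fit of 9, chosen after the data were seen, leaves GFP-2331 as the single CD11b control, whose spread is assumed to be that of the other groups.

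Some of these genes cannot be counted cleanly. Reads were 50 bases long, and 66.3% of the 50-base stretches in Hspa1a transcripts also occur in another gene's transcripts (58.8% in Hspa1b), while for Hspa1b the share was 62.3%. Because only uniquely aligned reads were counted, both levels are understated, and the split between the 2 genes is uncertain. The shares were 50.1% for Hspb1 (mostly the pseudogene Hsp25-ps1), 47.5% for Hsp90aa1 (mostly Gm12346), 39.4% for Hspa8 (mostly Gm15459) and 13.3% for Cryab (Hspb2), 0.412% for Dnajb1, and 0.0% for Hsph1, Hspa5 and Bag3. Hspa1a shares 564 exonic bases with Gm20481, and Cryab 252 with Hspb2, on opposite strands, and the strand setting of the counting is not given in the sources used here. Small nucleolar RNAs (Snord14c, Snord14d and Snord14e) lie within Hspa8 and cover 86, 86 and 90 of its bases. In bulk samples such as these, fewer cells of a type and less RNA per cell cannot be told apart.

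Compared per length, as mean CPM per kilobase of exon, the order of the 10 genes in ACSA-2 libraries of AAV-GFP animals began with Cryab (231) and Hspa5 (216), whose libraries overlapped and which stood apart from all others. Hspb1 (49.3), Hspa8 (38.8), Hsp90aa1 (33.2) and Bag3 (30.5) followed, each overlapping its neighbour. Then came Hsph1 (13.9) and Dnajb1 (10.9), which overlapped, and at the end Hspa1b (3.28) and Hspa1a (1.69), which stood apart from Dnajb1 and from each other. Lengths were not corrected for stretches that also occur in other genes (66.3% for Hspa1a and 62.3% for Hspa1b, against 0.412% for Dnajb1). The steps between these genes are therefore uncertain, as are the places of Hspb1, Hsp90aa1 and Hspa8. In CD11b libraries of AAV-GFP animals only Hspa5 (971) stood apart. From Cryab (157) through Dnajb1 (105), Hspa8 (71.4), Hspb1 (48.4), Hspa1b (43.0), Hsp90aa1 (41.8), Hspa1a (24.4) and Hsph1 (19.9) to Bag3 (15.5), neighbours overlapped. The place of Cryab rests on the Ttr-rich controls, since in GFP-2331 it was at 16.7 CPM per kilobase, below Dnajb1 (58.8), Hspa8 (38.5) and Hspb1 (27.2). Hspa5 alone gave 44.7 to 56.9% of the members' counts in ACSA-2 libraries and 70.9 to 83.3% in CD11b libraries. The 10 genes together held 0.151 to 0.202% of all counts in ACSA-2 and 0.286 to 0.818% in CD11b libraries.

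**Figure D1:**
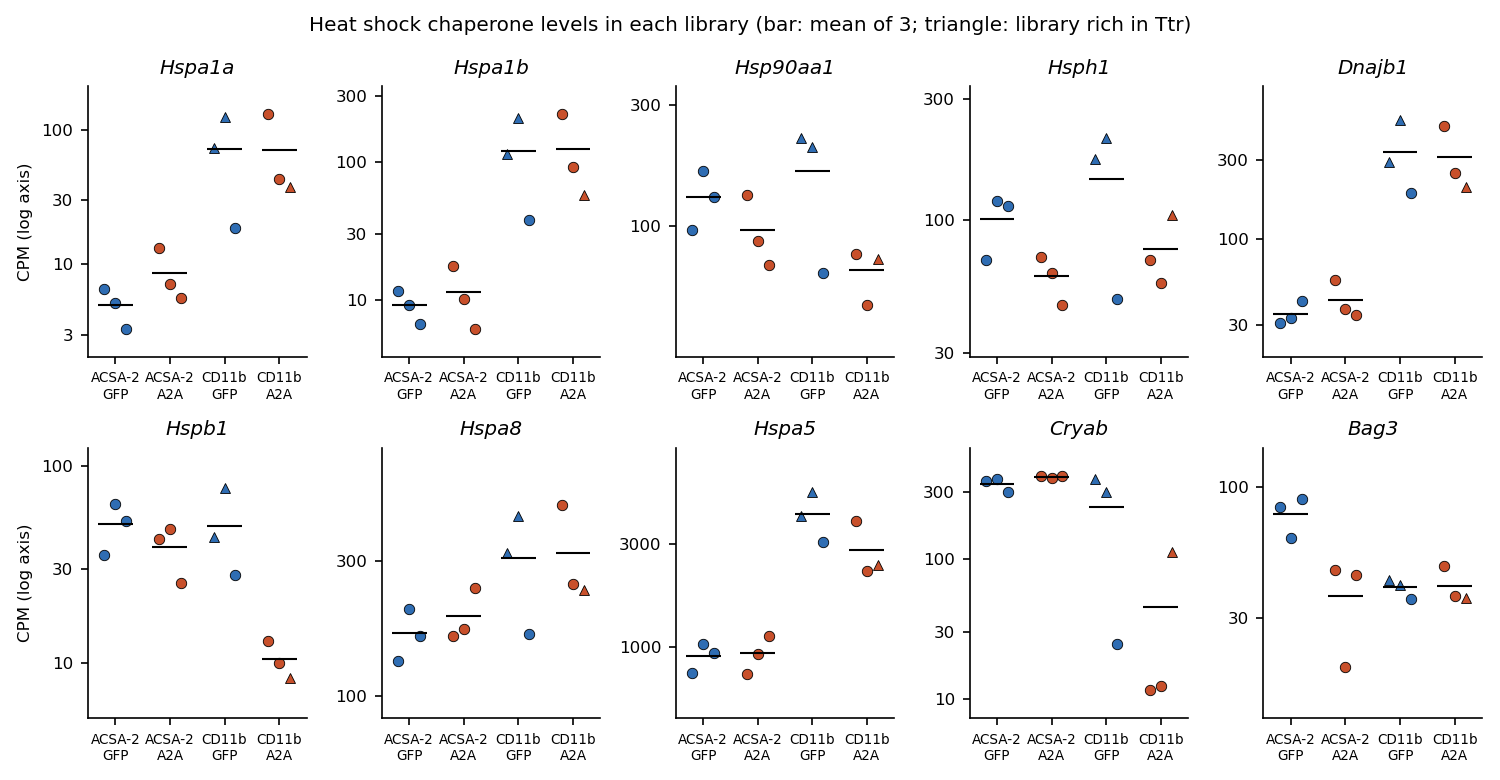
Levels of the 10 chaperones in each library, in CPM on a log axis that differs between genes, for both vectors (blue AAV-GFP, orange AAV-A2A) in both fractions. Points are libraries, bars are means of 3 and triangles are the Ttr-rich libraries; Hspa1a, Hspa1b, Dnajb1 and Hspa5 are lower in all 6 ACSA-2 libraries than in any CD11b library.

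Between the fractions, 5 of the 10 chaperones were called in AAV-GFP animals, against 26.7% of the 18602 genes tested. Of these, 4 were lower in ACSA-2 libraries (14.4% of all genes) and 1 was higher (12.3%). The groups did not overlap for the same 5 genes, against 48.1% of all genes. An unadjusted p under 0.05 was seen for 6 of the 10, against 39.6% of all genes. The median log2 fold change of the 10, ACSA-2 over CD11b, was -0.70, beside -0.11 for all genes. Without the Ttr-rich libraries it was 0.41, beside 0.18 for all genes.

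Between the vectors, 0 of 10 were called in ACSA-2 libraries, against 3.36% of 16451 genes (0.176% higher and 3.19% lower with AAV-A2A). With edgeR, 2 of the 10 had an unadjusted p under 0.05 (Bag3 and Hsph1), against 13% of all genes, and DESeq2 called 1 of the 10, Bag3. The log2 fold change was positive for 6 and negative for 4, with a median of 0.13, beside 0.02 for all genes. Libraries did not overlap for Cryab, which was higher, and Bag3, which was lower, and the same held for 19.6% of all genes.

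In CD11b libraries 0 of 10 were likewise called, and edgeR called 0.0% of the 16949 genes tested. The unadjusted p was under 0.05 for 2 of the 10 (Hspb1 and Hsp90aa1), against 16.0% of all genes. DESeq2 called 502 genes, of which Hspb1 was the only member. The log2 fold change was negative for 9 of 10 (for all 10 with other scaling, where Hspa8 turned), with a median of -0.37, beside -0.05 for all genes. Without the Ttr-rich libraries, however, it was positive for 6 of 10, with a median of 0.32, beside 0.0095 for all genes. The highest values there were those of Hspa1a (2.23), Hspa1b (2.04), Hspa8 (1.14) and Dnajb1 (0.98) and the lowest those of Hspb1 (-1.28) and Cryab (-1.03), and none was called. Only Hspb1 had libraries that did not overlap, against 23.4% of all genes.

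**Figure D2:**
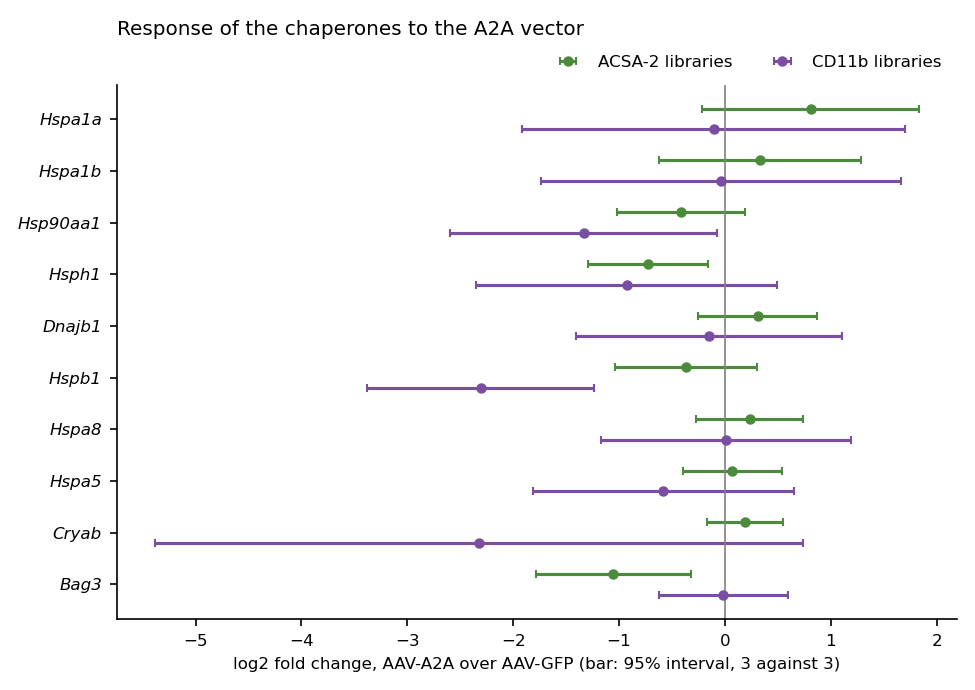
Log2 fold change of each chaperone, AAV-A2A over AAV-GFP, in ACSA-2 (green) and CD11b (purple) libraries, with 95% intervals from edgeR (3 libraries against 3). Intervals leave out 0 for Hsph1 and Bag3 in ACSA-2 and for Hspb1 and Hsp90aa1 in CD11b libraries, none of which was called after adjustment.

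Hspa1a (ENSMUSG00000091971, chr17:34969190-34972156, minus strand, GRCm38) and its near-copy Hspa1b (ENSMUSG00000090877, chr17:34956436-34959238, minus strand) encode the HSP70 that cells make under stress. In ACSA-2 libraries Hspa1a stood at 6.53, 5.21 and 3.31 CPM with AAV-GFP and at 13.2, 7.20 and 5.60 CPM with AAV-A2A. CD11b libraries gave 73.4, 125 and 18.7 CPM with AAV-GFP and 132, 43.1 and 37.3 CPM with AAV-A2A. Every CD11b library was above every ACSA-2 library, and within a fraction the vectors overlapped. In the AAV-GFP animals Hspa1a was 14.4-fold lower in ACSA-2 libraries (log2 fold change -3.85, SE 0.73, adjusted p = 0.00297).

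Hspa1b was counted at 11.6, 9.22 and 6.75 CPM in ACSA-2 libraries with AAV-GFP and at 17.8, 10.3 and 6.23 CPM with AAV-A2A. The CD11b libraries held 114, 210 and 38.3 CPM with AAV-GFP and 222, 91.9 and 57.4 CPM with AAV-A2A. It was 13.1-fold lower in ACSA-2 libraries (log2 fold change -3.71, SE 0.69, adjusted p = 0.00269), again with no overlap over all 12 libraries. The spread among CD11b libraries was wide for both genes, with GFP-2329 and A2A-2343 at the top and GFP-2331 at the bottom. Without GFP-2329 the log2 fold changes were -3.20 for Hspa1a and -3.05 for Hspa1b. In the 9 libraries that were not Ttr-rich, with GFP-2331 as the only CD11b control, they were -1.92 and -2.09. Between the vectors neither gene was called, with log2 fold changes of 0.81 (95% interval -0.21 to 1.83) for Hspa1a and 0.33 (-0.62 to 1.29) for Hspa1b in ACSA-2 libraries. In CD11b libraries the values were -0.11 (-1.92 to 1.70) and -0.04 (-1.74 to 1.66). Among the Ttr-rich CD11b libraries the difference in mean log2 CPM, AAV-A2A minus AAV-GFP, was -1.36 for Hspa1a (1 library against 2), and among the others it was 2.01 (2 against 1), so that the direction turned with the libraries compared. Hspa1a took 31.9 to 47.3% of the reads counted on the pair.

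Hspa8 (ENSMUSG00000015656, chr9:40800984-40810087, plus strand) encodes the HSP70 that cells make without stress. Its levels were 134, 204 and 164 CPM with AAV-GFP and 164, 172 and 241 CPM with AAV-A2A in ACSA-2 libraries. They were 322, 434 and 166 CPM with AAV-GFP and 474, 250 and 238 CPM with AAV-A2A in CD11b libraries. The fractions overlapped, since GFP-2331 lay among the astrocyte values, and the fold difference of 1.84 (log2 -0.88, SE 0.39) was not called (adjusted p = 0.117). It was called without GFP-2331 (log2 fold change -1.18, adjusted p = 0.0354) and was -0.01 in the 9 libraries. The vectors differed by a log2 fold change of 0.23 (95% interval -0.27 to 0.74) in ACSA-2 and 0.01 (-1.17 to 1.19) in CD11b libraries. The latter was 1.14 (adjusted p = 0.706) without the Ttr-rich libraries, and the difference in mean log2 CPM was -0.65 among Ttr-rich and 1.06 among other libraries.

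Hspa5 (BiP, ENSMUSG00000026864, chr2:34771970-34777547, plus strand) is the HSP70 of the ER. It was counted at 762, 1034 and 944 CPM with AAV-GFP and at 753, 935 and 1132 CPM with AAV-A2A in ACSA-2 libraries. The CD11b libraries gave 4026, 5225 and 3068 CPM with AAV-GFP and 3815, 2249 and 2405 CPM with AAV-A2A. No CD11b library came near the astrocyte values, and Hspa5 was 4.50-fold lower in ACSA-2 libraries (log2 fold change -2.17, SE 0.35, adjusted p = 0.00119). In the 9 libraries, with GFP-2331 as the only CD11b control, the log2 fold change was -1.77. AAV-A2A against AAV-GFP gave 0.07 (95% interval -0.40 to 0.54) in ACSA-2 libraries, the narrowest but one of the 10 intervals there, and -0.58 (-1.81 to 0.65) in CD11b libraries.

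Dnajb1 (ENSMUSG00000005483, chr8:83608193-83612653, plus strand) encodes HSP40, the J-domain partner of the inducible HSP70. ACSA-2 libraries held 30.5, 32.7 and 41.6 CPM with AAV-GFP and 56.3, 37.3 and 34.1 CPM with AAV-A2A. CD11b libraries held 291, 529 and 188 CPM with AAV-GFP and 486, 252 and 206 CPM with AAV-A2A. The fractions were far apart and the order of the CD11b libraries was that of Hspa1a at the top and bottom of both vectors' groups. In AAV-GFP animals Dnajb1 was 9.62-fold lower in ACSA-2 libraries (log2 fold change -3.27, SE 0.46, adjusted p = 0.000502). In the 9 libraries, with GFP-2331 as the only CD11b control, the value was -2.46. The vectors overlapped in both fractions, at 0.31 (95% interval -0.26 to 0.87) in ACSA-2 and -0.15 (-1.41 to 1.11) in CD11b libraries.

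Hsph1 (HSP110, ENSMUSG00000029657, chr5:149614287-149636376, minus strand) encodes a distant HSP70 relative that exchanges nucleotide on HSP70. It was at 69.5, 119 and 114 CPM with AAV-GFP and at 71.8, 62.0 and 46.3 CPM with AAV-A2A in ACSA-2 libraries. Of the 3 controls, GFP-303 lay among the AAV-A2A libraries, so the groups overlapped. The log2 fold change was -0.72 (SE 0.25, 95% interval -1.29 to -0.16), and its edgeR p of 0.0175 became 0.223 after adjustment. In CD11b libraries Hsph1 was at 174, 211 and 48.7 CPM with AAV-GFP and at 69.8, 56.5 and 105 CPM with AAV-A2A. Here the Ttr-rich libraries were the 3 highest, and the log2 fold change of -0.93 (95% interval -2.35 to 0.50) was 0.38 in the 9 libraries. The fractions did not differ beyond the spread (log2 fold change -0.52, SE 0.46, adjusted p = 0.430), and in the 9 libraries the value was 1.02 (adjusted p = 0.0993).

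Bag3 (ENSMUSG00000030847, chr7:128523616-128546981, plus strand) encodes a co-chaperone that exchanges nucleotide on HSP70 and leads its clients to autophagy. It was at 82.9, 62.3 and 89.4 CPM with AAV-GFP and at 46.8, 19.2 and 44.5 CPM with AAV-A2A in ACSA-2 libraries. All 3 AAV-A2A libraries were below all 3 controls, A2A-310 the furthest. The log2 fold change was -1.06 (SE 0.33, 95% interval -1.79 to -0.32), and the edgeR p of 0.00949 was 0.157 after adjustment, so Bag3 was not called, while DESeq2 gave an adjusted p of 0.0339. The range of adjusted p over all alternatives was 0.0339 to 0.374. In CD11b libraries it was at 42.8, 40.7 and 35.9 CPM with AAV-GFP and at 48.2, 36.9 and 36.0 CPM with AAV-A2A, the narrowest spread of the 10 genes there. The vectors gave a log2 fold change of -0.01 (95% interval -0.62 to 0.59) in this fraction.

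Against the CD11b controls, Bag3 was 1.96-fold higher in ACSA-2 controls (log2 fold change 0.97, SE 0.32, adjusted p = 0.0438). That call was lost in 9 of the 12 fits that left out 1 library, and was kept without A2A-310 (adjusted p = 0.0138), A2A-2343 (0.0456) or A2A-2347 (0.0492). In the 9 libraries the log2 fold change was 1.1 (adjusted p = 0.147).

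Hsp90aa1 (ENSMUSG00000021270, chr12:110690605-110702728, minus strand) encodes the stress-inducible cytosolic HSP90, which matures kinases and receptors. In ACSA-2 libraries it was at 96.4, 164 and 130 CPM with AAV-GFP and at 132, 87.0 and 70.0 CPM with AAV-A2A, which overlapped (log2 fold change -0.41, SE 0.27, adjusted p = 0.620). Among CD11b libraries the levels were 222, 205 and 65.1 CPM with AAV-GFP and 77.8, 48.9 and 73.9 CPM with AAV-A2A. Only the Ttr-rich controls exceeded the AAV-A2A libraries, and GFP-2331 lay among them. The log2 fold change was -1.33 (SE 0.53, 95% interval -2.60 to -0.07) with an edgeR p of 0.0410, which was 0.301 after adjustment, and in the 9 libraries it was -0.03. The fractions overlapped (log2 fold change -0.33, SE 0.43, adjusted p = 0.596), and the value was 0.98 in the 9 libraries.

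Hspb1 (HSP25, ENSMUSG00000004951, chr5:135887919-135889563, plus strand) encodes a small heat shock protein that holds unfolded proteins and binds actin. In ACSA-2 libraries it was at 35.4, 64.3 and 52.9 CPM with AAV-GFP and at 42.9, 47.9 and 25.6 CPM with AAV-A2A. In CD11b libraries it was at 43.7, 77.9 and 28.1 CPM with AAV-GFP and at 12.96, 9.96 and 8.35 CPM with AAV-A2A. All 3 CD11b libraries with AAV-A2A were below all 3 controls, the Ttr-poor GFP-2331 included, and the Ttr-rich A2A-2347 was the lowest. The log2 fold change was -2.30 (SE 0.45, 95% interval -3.38 to -1.23), and the edgeR p of 0.00151 was 0.280 after adjustment, whereas DESeq2 gave -2.31 with an adjusted p of 0.00626. Over all alternatives the adjusted p ran from 0.00626 to 0.742. Among Ttr-rich libraries the difference in mean log2 CPM was -2.80 (1 library against 2) and among the others -1.30 (2 against 1). In ACSA-2 libraries it was not called (log2 fold change -0.37, SE 0.30, adjusted p = 0.717), and the controls of the fractions did not differ beyond the spread (log2 fold change 0.03, 95% interval -0.84 to 0.89, or 0.83 with an adjusted p of 0.247 in the 9 libraries).

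Markers of some other cells moved with Hspb1 in the CD11b libraries. Summed erythrocyte markers were 1015 to 5980 CPM with AAV-GFP and 56.7 to 253 CPM with AAV-A2A, endothelial markers 621 to 1579 and 397 to 492 CPM, ependymal markers 176 to 373 and 35.1 to 94.6 CPM, and neuron markers 22.5 to 102.1 and 4.29 to 10.2 CPM. None of these sums overlapped between the vectors, while for single genes the groups did not overlap in 23.4%. Sums of mural (770 to 2032 and 711 to 1931 CPM), oligodendrocyte, border macrophage, choroid plexus, astrocyte and microglia markers did overlap. No marker of these lists was at 0 in a whole group, except 1 neuron marker with AAV-A2A. Their part in the result was not tested.

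Cryab (ENSMUSG00000032060, chr9:50751325-50756636, plus strand) encodes alpha B-crystallin, a small heat shock protein. In ACSA-2 libraries it was at 359, 368 and 296 CPM with AAV-GFP and at 387, 373 and 385 CPM with AAV-A2A. All 3 AAV-A2A libraries were above the controls, but by little (log2 fold change 0.19, SE 0.16, 95% interval -0.17 to 0.55, adjusted p = 0.736). The CD11b libraries were at 371, 301 and 24.7 CPM with AAV-GFP and at 11.7, 12.4 and 112 CPM with AAV-A2A. The 3 Ttr-rich libraries were the 3 highest and the other 3 were below 25 CPM, whatever the vector. The vectors overlapped (log2 fold change -2.32, SE 1.29, adjusted p = 0.409), with differences in mean log2 CPM of -1.58 among Ttr-rich and -1.03 among other libraries. Between the fractions Cryab was not called over 12 libraries (log2 fold change 0.55, SE 0.91, adjusted p = 0.684), nor in any fit that left out 1 library. In the 9 libraries, where GFP-2331 is the only CD11b control, its log2 fold change of 3.76 was the largest of the 10. The part of choroid plexus RNA in these levels was not tested.

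**Figure D3:**
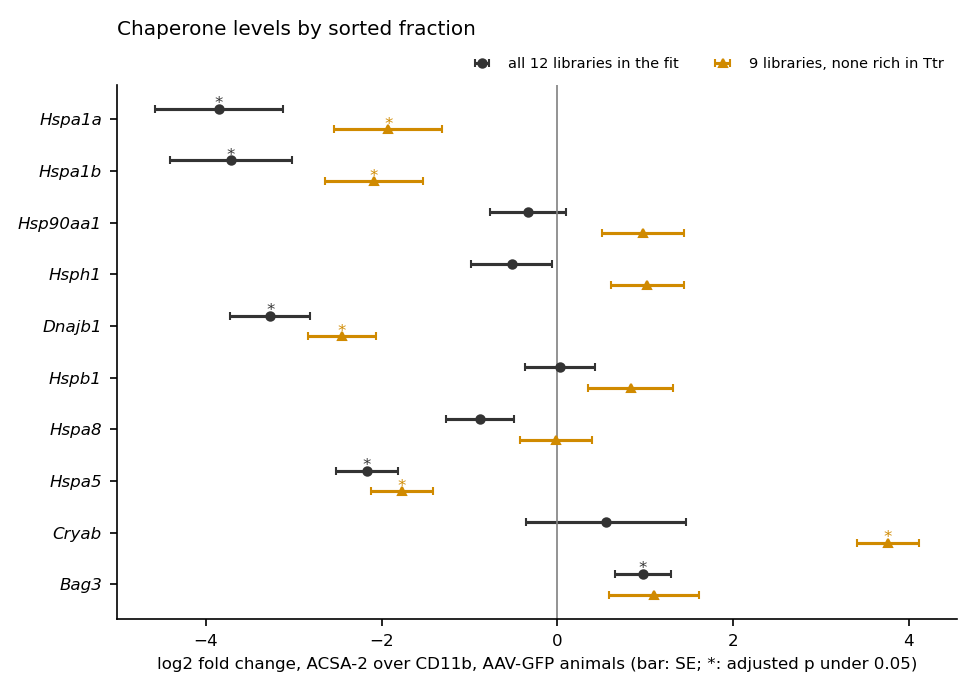
Log2 fold change of each chaperone, ACSA-2 over CD11b in AAV-GFP animals, with SE, from the fit of all 12 libraries (black circles) and of the 9 that were not Ttr-rich (orange triangles); stars mark an adjusted p under 0.05. Hspa1a, Hspa1b, Dnajb1 and Hspa5 are left of 0 in both fits, and in the first they and Bag3 are starred. The second fit has GFP-2331 as its only CD11b control, so its stars rest on the spread of other groups.

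The response to AAV-A2A did not differ between the fractions past the threshold for any of the 10 chaperones, when the difference itself was tested in a fit of all 12 libraries. There edgeR called 0.403% of the 18602 genes, and 2 of the 10 had an unadjusted p under 0.05, against 19.6% of all genes. These were Hspb1, whose response in ACSA-2 exceeded that in CD11b libraries by 1.87 (SE 0.56, adjusted p = 0.117), and Bag3, with -1.11 (SE 0.45, adjusted p = 0.209). With DESeq2 the value for Hspb1 was 1.93 and was called (adjusted p = 0.0271), the only member that was, and edgeR called it without GFP-2331 (adjusted p = 0.0364). For Cryab the difference was 2.52 (95% interval -0.33 to 5.37). Without the Ttr-rich libraries the values were 0.89 for Hspb1, -1.34 for Bag3 and 1.19 for Cryab, and the median of the 10 was -0.81 in place of 0.48, with none called.

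Around these 10 genes, lists of the chaperone network were counted for ACSA-2 against CD11b libraries of AAV-GFP animals. Over all lists, the members included, 41 of 120 distinct genes tested were called (34.2%, against 26.7% of all genes), 30 lower (25.0%, against 14.4%) and 11 higher (9.17%, against 12.3%). Of 24 ER chaperones and UPR genes, 17 were called lower in ACSA-2 libraries (70.8%) and 0 higher. Their median log2 fold change was -1.30, or -1.41 in the 9 libraries. Beside Hspa5 these included Hsp90b1, the HSP90 of the ER (-1.97), Sdf2l1, a partner of Hspa5 (-2.60), and Xbp1, a transcription factor of the UPR (-1.61). Of 15 HSP70 and HSP110 genes, 5 were called lower and 1 higher, 6 in all, where Hspa4, an HSP110 relative, gave -1.49 and Hspa2, another HSP70, 2.05. Of 38 J-domain genes 8 were lower and 4 higher (31.6%), of 14 HSP90 and co-chaperone genes 2 and 1 (21.4%), of 7 genes of BAG3-assisted autophagy 0 and 2 (28.6%), and of 9 nucleotide exchange genes 0 and 1 (11.1%), which is Bag3 itself. The share of all genes was 26.7%. Of 5 heat shock factors and their regulators tested, the factors Hsf1, Hsf2 and Hsf4 were not called, while the binding proteins Hsbp1 (1.31) and Hsf2bp (-5.96) were. None of 10 chaperonins was called in either direction by edgeR or DESeq2 (median 0.06, or -0.06 with scaling by library size only), and none had an unadjusted p under 0.05.

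Of the 24 HSF1 targets 7 were called (29.2%, near the share of all genes), with a median of -0.03, 4 called lower in ACSA-2 libraries (Hspa1a, Hspa1b and Dnajb1 among them) and 3 higher (Bag3, Mt1 and Mt2). That median was 0.84 without the Ttr-rich libraries. The metallothioneins Mt1 and Mt2, which bind metal ions, gave the largest differences of the list (log2 fold change 4.43 and 5.03). Of 6 small heat shock genes tested, 1 was called, Hspb3, which had no counts in a whole group. Genes named in these 2 paragraphs for the fraction comparison, other than the 10 members and Mt1, were chosen after their values were seen. In the same comparison all 16 immediate early genes, which cells switch on within minutes of a stimulus such as tissue digestion, were called lower in ACSA-2 libraries, with a median of -4.33. Their summed level was 1038 to 1597 CPM in ACSA-2 and 15524 to 33118 CPM in CD11b libraries. Their part in the level of Hspa1a, Hspa1b and Dnajb1 was not tested.

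Per length, the leading gene of the HSP90 list was Hsp90ab1, the constitutive HSP90, in both fractions (mean CPM per kilobase 365 in ACSA-2 and 578 in CD11b controls). Chaperonins were led by Cct5 (118 and 91.6), nucleotide exchange genes by Bag1 (178 and 144), heat shock factors and their regulators by Hsbp1, an HSF-binding protein (236 and 95.2), and BAG3-assisted autophagy by the cargo receptor Sqstm1 (295 and 217). J-domain genes were led by Dnajc8 (54.1) in ACSA-2 and by Dnajb1 in CD11b libraries. ER genes were led by the disulfide isomerase Pdia3 (355) in ACSA-2 and by Hspa5 in CD11b libraries, and HSF1 targets by Mt1 (2775) and Hsp90ab1.

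With AAV-A2A in ACSA-2 libraries, 5 of 117 distinct genes tested from the chaperone lists fell past the threshold (4.27%) and 0 rose. These shares are near those of all genes, of which 3.19% were called lower and 0.176% higher, so that only the single genes are described. Sel1l (ENSMUSG00000020964, chr12:91806043-91849157), an adaptor of ER-associated degradation, was at 410, 444 and 460 CPM with AAV-GFP and at 151, 90.0 and 120 CPM with AAV-A2A. It fell by 1.83 on the log2 scale (SE 0.21, adjusted p = 0.00240) and was called whichever library was left out. In CD11b libraries Sel1l was at 302, 248 and 321 CPM with AAV-GFP and at 336, 324 and 309 CPM with AAV-A2A (adjusted p = 0.858).

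Hyou1 (ENSMUSG00000032115, chr9:44379490-44392369), an ER relative of HSP110 and partner of Hspa5, was at 17.6, 21.5 and 18.9 CPM with AAV-GFP and at 3.13, 5.95 and 6.40 CPM with AAV-A2A in ACSA-2 libraries. The groups were apart, and it fell by 1.87 (SE 0.36, adjusted p = 0.0211). The call was lost without each of the 6 libraries in turn (adjusted p 0.0501 to 0.0973). In CD11b libraries it was at 44.7, 49.2 and 45.4 CPM with AAV-GFP and at 48.5, 123 and 94.7 CPM with AAV-A2A (adjusted p = 0.313).

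Hsf1 (ENSMUSG00000022556, chr15:76477422-76501913), the heat shock transcription factor itself, was at 121, 131 and 99.9 CPM with AAV-GFP and at 50.2, 64.9 and 53.2 CPM with AAV-A2A in ACSA-2 libraries, and it fell by 1.04 (SE 0.19, adjusted p = 0.0178). The call was lost without A2A-309, A2A-313, GFP-303 or GFP-306 (adjusted p 0.0569 to 0.0953) and in the fit of all 12 libraries (0.0642). Chordc1 (ENSMUSG00000001774, chr9:18292125-18317442), an HSP90 co-chaperone and HSF1 target, was at 101, 138 and 89.6 CPM with AAV-GFP and at 36.6, 26.5 and 47.2 CPM with AAV-A2A, and it fell by 1.54 (SE 0.27, adjusted p = 0.0121). That call was lost without A2A-309, A2A-310 or GFP-306 (adjusted p 0.0526 to 0.0668) and in the fit of all 12 libraries (0.0888). The groups did not overlap for either gene, and in CD11b libraries their log2 fold changes were -0.10 (adjusted p = 0.864) for Hsf1 and -0.38 (adjusted p = 0.667) for Chordc1.

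Synpo2 (ENSMUSG00000050315, chr3:123076519-123236149), a partner of Bag3 in the autophagy of damaged filaments, was at 35.6, 85.3 and 47.5 CPM with AAV-GFP and at 21.8, 9.45 and 9.90 CPM with AAV-A2A in ACSA-2 libraries. It fell by 2.01 (SE 0.42, adjusted p = 0.0310), and the call was lost without A2A-310, A2A-313, GFP-306 or GFP-307 (adjusted p 0.0726 to 0.145), in the fit of all 12 libraries (0.110) and with scaling by library size only (0.0505). All 3 AAV-A2A libraries were below the controls. In CD11b libraries the log2 fold change was -1.34 (adjusted p = 0.294).

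A marker of another cell type was called lower in the same comparison. Flt1, a VEGF receptor of endothelial cells, was at 160, 197 and 193 CPM with AAV-GFP and at 47.4, 77.4 and 46.0 CPM with AAV-A2A in ACSA-2 libraries (log2 fold change -1.66, SE 0.24, adjusted p = 0.00523). It was 1 of 7 endothelial markers called, and their summed level, 468 to 543 CPM with AAV-GFP and 277 to 540 CPM with AAV-A2A, overlapped between the vectors, with no marker at 0 in a whole group. No marker of the other 9 cell types was called there. The part of endothelial RNA in the 5 list genes was not tested.

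The other list genes were not called by edgeR with AAV-A2A in ACSA-2 libraries, which leaves 0 of 38 J-domain genes, 0 of 5 small heat shock genes, 0 of 10 chaperonins and 0 of 9 nucleotide exchange genes. With edgeR the unadjusted p was under 0.05 for 2, 0, 0 and 2 of these, and DESeq2 called Dnajc16 among the J-domain genes (log2 fold change -1.02, adjusted p = 0.0180) and Bag3. In other lists DESeq2 called the heat shock factor Hsf2 (-1.91, adjusted p = 0.00186) and the HSP90 co-chaperone Ptges3 (-0.74, adjusted p = 0.00495), and limma-voom Hsf2 (-2.04, adjusted p = 0.0446), for which edgeR gave an adjusted p of 0.0682. Beside Chordc1, the other 23 of 24 HSF1 targets were not called, and the median of the list was -0.04. Of the 16 immediate early genes 1 was called lower, Egr1 (log2 fold change -1.61, adjusted p = 0.0213), named after its value was seen, and 11 had a positive log2 fold change. In CD11b libraries no gene of any list was called by edgeR. The unadjusted p was under 0.05 for 7 of 24 ER genes, 5 of 24 HSF1 targets, 5 of 38 J-domain genes and 1 of 10 chaperonins. The same held for 16.0% of all genes. DESeq2 called 5 list genes there, all lower (Hspb1, Creld2, Manf, Mt2 and Hspe1). There the log2 fold change was negative for all 10 chaperonins (median -0.28) and for 22 of 24 HSF1 targets (median -0.63), beside -0.05 for all genes. Without the Ttr-rich libraries 8 of 10 chaperonins (median -0.12) and 13 of 24 HSF1 targets (median -0.02) were negative.

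**Figure D4:**
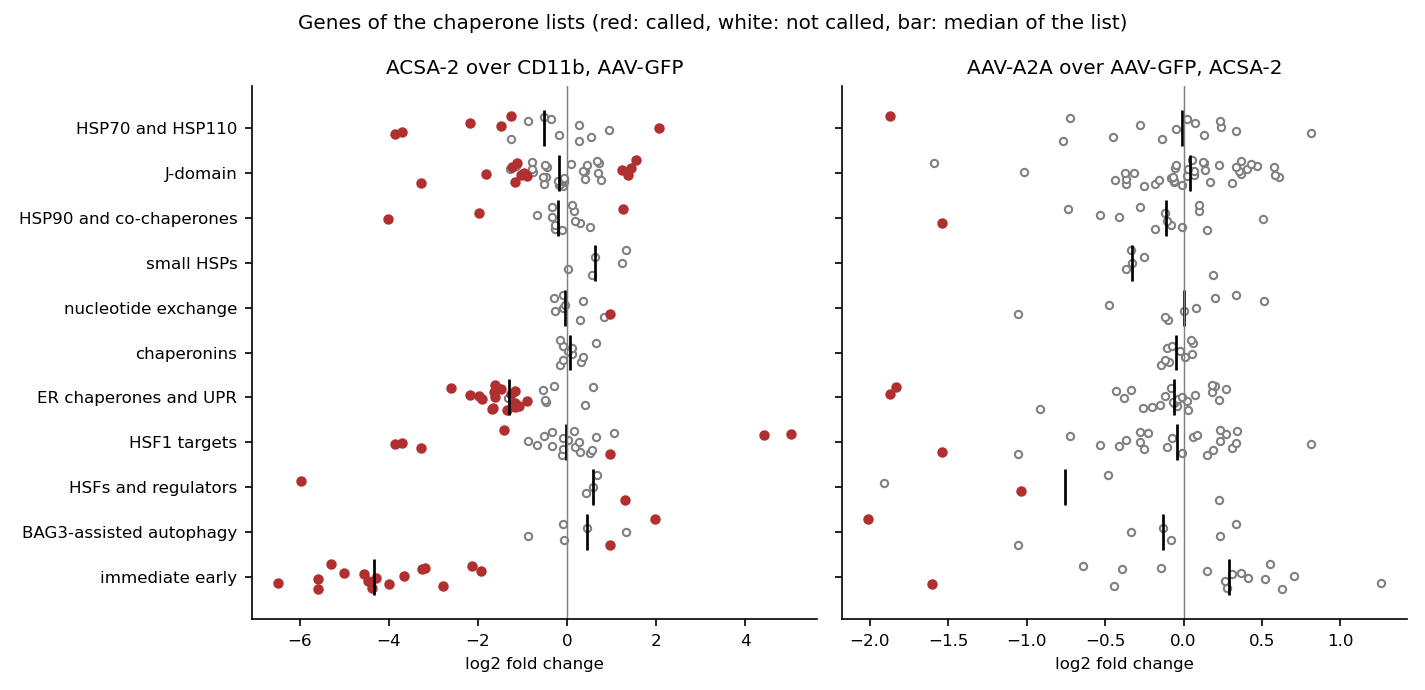
Log2 fold changes of the genes of each list, ACSA-2 over CD11b in AAV-GFP animals (left) and AAV-A2A over AAV-GFP in ACSA-2 libraries (right); each point is a gene, red where called, and the bar is the list's median. Hspb3, with no counts in a whole group, is left out on the left; ER and immediate early genes lie mostly left of 0 there, and the right panel has few red points, all left of 0.

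Across the 12 libraries each member was compared with other genes. Each fraction's mean was first taken away. Of all 9580 genes compared, the one most like Hspa1a over 12 libraries was Hspa1b (Pearson's r 0.957), followed by Dnajb1 (0.850). Hspa1b is a near-copy of Hspa1a in sequence, and reads that align to both were not counted. Hspa1b was the most like gene of Dnajb1 (0.872), and Htr5b was next for Hspa1b (0.888). Hsp90aa1 was most like Spata17 (0.933) and Hsph1 (0.917), and Hsph1 most like ENSMUSG00000118462 (0.950) and Dnajb2 (0.948). Hspb1 was most like the haemoglobin gene Hbb-bs and the surface antigen gene Ly6a (both 0.959), and Ccdc189 was among the genes most like Cryab (0.989). For Hspa8 these were Msantd4 (0.873) and Chka (0.872), for Hspa5 Cops3 (0.935) and Hhatl (0.918), and for Bag3 ENSMUSG00000118642 (0.961) and Utp6 (0.933).

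Over the 45 pairs of members, r had a median of 0.65 (0.00 to 1.00) in the 6 CD11b libraries and of -0.05 (-0.84 to 0.91) in the 6 ACSA-2 libraries. In CD11b libraries all pairs were thus above 0. There GFP-2329 was the highest library for 4 members and GFP-2331 the lowest for 6. These correlations are descriptions over few libraries that share depth, vector and Ttr content.

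**Figure D5:**
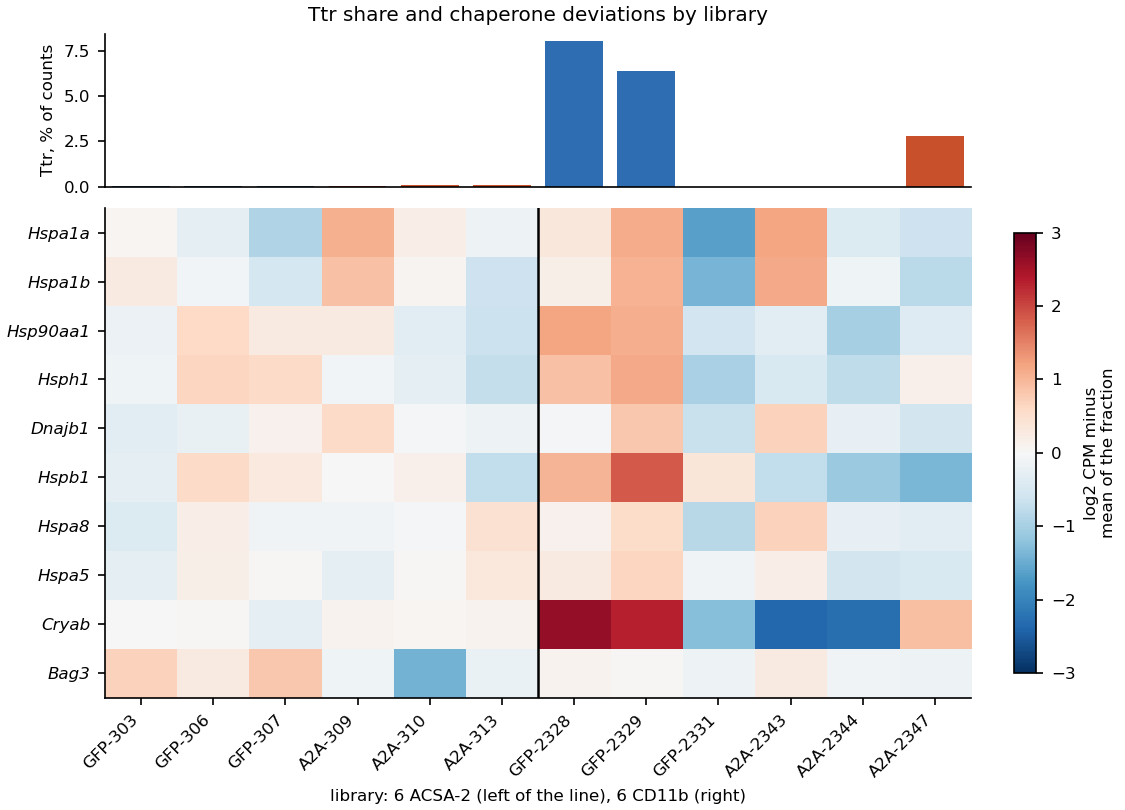
Top, share of counts on Ttr in each of the 12 libraries (blue AAV-GFP, orange AAV-A2A); bottom, log2 CPM of each chaperone minus the mean of its fraction (red above, blue below). GFP-2329 is above the mean for all 10 members, and Cryab follows the Ttr share within the CD11b libraries.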

How the data were processed

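Hippocampal polyA RNA was measured in 12 libraries (4 groups of 3, assigned from the labels alone). Per the labels and the study's methods, full-length cDNA was amplified by PCR, tagmented and sequenced as single 50-base reads. The authors trimmed them (cutadapt 1.10), aligned them to mm10 (STAR 2.5.3) and deposited raw counts of uniquely aligned, non-ambiguous reads per Ensembl gene (HTSeq 0.6.1p1). The strand setting is not given in the sources used here. Of the tables' columns, 25 that hold no sample of the series were not used.

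From the counts, edgeR 4.0.16 in R 4.3.3 (TMM, filterByExpr, robust quasi-likelihood F test, Benjamini-Hochberg adjustment over all genes tested) compared vectors within each fraction (6 libraries each). A fit of all 12 libraries compared fractions in AAV-GFP animals and the vector response between fractions. Intervals are 95% intervals of the fit. CPM use TMM over 12 libraries, and correlations log2 CPM of genes with a mean of at least 5 CPM in both fractions. Alternatives were DESeq2 1.42.0, voom from limma 3.58.1, scaling by library size or RLE, looser and stricter filters, other sets of libraries in the fit, Hspa1a and Hspa1b summed, and each library left out in turn. The scripts were tested on simulated counts. Depth was at least 33937067 counts a library, and counts are of amplified reads without molecular identifiers. Positions are from GENCODE annotation of GRCm38 and promoters from RefSeq (GRCm38.p6), where 7 of the 10 genes were matched.

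Members, lists and tests were chosen with earlier results of these data known, and are not independent of them. The text names the 10 members, Adora2a, list genes called between vectors within a fraction (up to 4 a list), each list's leading gene per length, and for each member the 2 most correlated genes. Plots were made in Python 3.11.15 (matplotlib 3.10.9). Some genes that the naming rule or a list would give are not reported here.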

Additional observations from a re-analysis of the deposited data

Results flagged for a closer look

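The response to AAV-A2A differed between the fractions for 2 genes of the chaperone lists by the test of the difference itself (edgeR, fit of all 12 libraries, where 0.403% of genes were called). For Hyou1 the log2 fold change in ACSA-2 was below that in CD11b libraries by 2.84 (value -2.84, SE 0.50, adjusted p = 0.0438). For Sel1l the difference was -2.01 (SE 0.35, adjusted p = 0.0438). Both calls were lost in 10 of the 12 fits that left out 1 library and were kept without A2A-2343 (adjusted p = 0.00894 for Hyou1 and 0.0189 for Sel1l) or GFP-2331 (0.0205 and 0.0140). In the 9 libraries that were not Ttr-rich the differences were -2.83 (adjusted p = 0.258) and -1.91 (adjusted p = 0.226). DESeq2 gave adjusted p values of 0.000153 and 1.34e-06. Scaling by library size only gave 0.0718 and 0.0635, RLE scaling 0.0520 and 0.0505, and limma-voom 0.0601 and 0.0300, so that these alternatives kept only the call for Sel1l with limma-voom. The cause was not tested.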

How the results depend on the processing

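Leaving out the Ttr-rich libraries, or giving them a term in the CD11b fit, was chosen after seeing the data. Of all values of members and named genes under alternatives, 927 kept their direction and side of the threshold, 66 lost it, 7 gained it and 61 turned direction. Where no cause is given, it was not tested.

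The number of genes called between vectors in ACSA-2 libraries (553) was 156 in the fit of 12 libraries, 1277 with DESeq2 (277 higher, 1000 lower) and 272 to 448 when a library was left out (295 without A2A-310, 330 without A2A-313, 272 without GFP-306, 341 without GFP-307). In CD11b libraries (0) it was 502 with DESeq2 (264 higher, 238 lower), 3 in the 9 libraries and 0 to 0 when a library was left out. Between fractions (4968) it was 3380 to 5224. For the difference in response (75) it was 0 in the 9 libraries, 345 with at least 10 counts in every library, 1740 with DESeq2, 0 with library size only, 10 with RLE scaling and 0 to 1286 with a library left out (830 without A2A-2343, 1286 without GFP-2331, 41 without A2A-309, 1 without A2A-2344, 0 without each other library). DESeq2 called 1 member in each vector comparison and 1 for the difference in response, where leaving out a library gave 0 to 1. Between fractions 4 to 5 members were called.

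Between vectors in CD11b libraries, log2 fold changes turned in the 9 libraries (Bag3 0.25, Chordc1 0.48, Dnajb1 0.98, Hspa1a 2.23, Hspa1b 2.04, Hsph1 0.38), with a Ttr term (Bag3 0.036, Dnajb1 0.010, Hspa1a 0.42, Hspa1b 0.29), in the 12-library fit (Bag3 0.021, Hspa1b 0.038), with voom (Hspa1a 0.074, Hspa1b 0.12), without a filter (Bag3 0.027) and for Hspa8 with at least 10 counts (-0.089), library size (-0.17) or RLE (-0.018). The difference in response turned in the 9 libraries (Dnajb1 -0.69, Hsp90aa1 -0.40, Hspa1a -1.45, Hspa1b -1.73, Hspa8 -0.93, Hsph1 -1.13) and with voom (Hsph1 -0.036), and the fraction difference in the 9 libraries (Hsp90aa1 0.98, Hsph1 1.02) and with library size (Hspb1 -0.12).

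With a library left out, values ran through 0 in CD11b for Bag3 (-0.12 to 0.072), Dnajb1 (-0.57 to 0.34), Hspa1a (-0.87 to 0.54), Hspa1b (-0.72 to 0.62) and Hspa8 (-0.34 to 0.34). In ACSA-2 libraries they did for Hspa1b (-0.12 to 0.62) and Hspa5 (-0.10 to 0.22), between fractions for Hspb1 (-0.26 to 0.50), and for the difference in response for Dnajb1 (-0.11 to 0.83), Hspa1b (-0.40 to 1.00), Hspa8 (-0.20 to 0.53) and Hsph1 (-0.22 to 0.57). None of these values was called. Scaling by library size only moved the median of all genes to -0.17 between vectors in CD11b libraries and to -0.23 between fractions, from -0.05 and -0.11. In the 9 libraries, with GFP-2331 as the only CD11b control, the log2 fold change between fractions was 3.76 for Cryab and 1.1 for Bag3. Bag3 between fractions was not called without a filter (adjusted p = 0.0579) or with library size only (0.0738).

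No paired analysis was possible because no replicate number occurs in more than 1 group. Depth limits the 10 genes little, since the lowest count was 124 reads (Hspa1a in GFP-307).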
